A study of Mus musculus with 6 samples.

Results

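The EMT transcription factors are the regulators best known for driving epithelial-mesenchymal transition (EMT), the change by which a polarized epithelial cell loses its junctions and takes on a motile, mesenchymal form. The set held 10 genes, *Snai1*, *Snai2*, *Snai3*, *Twist1*, *Twist2*, *Zeb1*, *Zeb2*, *Foxc2*, *Prrx1* and *Hmga2*, of 17097 genes measured. Each gene was followed through every probe set that the array annotation assigns to it alone, which gave 23 probe sets. Expression had been measured on Affymetrix mouse expression arrays in 2 populations of mouse cutaneous squamous cell carcinoma (cSCC) cells. EpCAM+ plastic cancer cells were sorted by FACS, as α6-integrin+CD45-EpCAM+ cells, from 3 moderately to poorly differentiated tumors (MD/PD-SCCs), and full epithelial cancer cells were sorted with the same gate from 3 well differentiated tumors (WD-SCCs). Each tumor was independent and gave 1 array, and the comparison asks which of these regulators differ between epithelial cancer cells from plastic tumors and those from epithelial tumors.

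Both populations came from untreated tumors as far as the labels say. Per the study's methods, the cSCC cells go back to tumors, spontaneous or carcinogen-induced, of K14-HPV16 Tg/+ mice, in which a keratin promoter drives the viral transgene in basal keratinocytes, and all carried a GFP marker. WD-SCC lineages were grown from small numbers of engrafted cells, and MD/PD-SCCs arose when WD-SCCs were passed on through nude mice. The labels give neither the lineage, the host, the age nor the passage of any of the 6 tumors, so tumor grade and passage cannot be told apart in these groups.

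The members fall into several protein families. SNAI and ZEB proteins are zinc finger repressors that bind E-boxes, short DNA motifs in the promoters of junction genes such as *Cdh1*. TWIST proteins are basic helix-loop-helix (bHLH) factors that pair with E-proteins such as TCF3, and Id proteins block this pairing. FOXC2 is a forkhead factor and PRRX1 a homeobox factor, both linked to mesenchymal development, and HMGA2 is an AT-hook protein that bends DNA and is a classical target of the let-7 microRNAs. In skin carcinoma these factors are best known from the invasive, mesenchymal end of the transition.

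Values are normalized log2 intensities, on which a step of 1 is a doubling, and a log2 fold change is EpCAM+ plastic minus full epithelial. The array medians lay between 4.85 and 4.90. A mean over the 6 arrays above 5.73, a level that 95% of the 23 control probe sets for nonspecific binding stay under, was taken as above background. Both populations carried keratinocyte transcripts, with *Krt5* at 12.46 to 12.56 in EpCAM+ plastic and 12.27 to 12.42 in full epithelial arrays. *Epcam* lay at 10.79 to 11.15 in EpCAM+ plastic and 10.46 to 10.97 in full epithelial arrays. The leukocyte marker *Ptprc*, which encodes the CD45 that the gate removes, was between 2.90 and 3.00 on all 6 arrays.

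Of the 10 members, *Hmga2* rose and *Foxc2* fell in EpCAM+ plastic cells at an adjusted p under 0.05 (limma, Benjamini-Hochberg over all probe sets), and 8 did not pass. Over all 17097 genes, each read at its brightest probe set, 7.21% passed in either direction, 5.3% higher and 1.91% lower. With a log2 fold change of at least 1 also required, *Hmga2* remained and *Foxc2* did not, beside 2.83% of all genes. The median log2 fold change of the members was 0.28, against -0.02 over all genes, with 6 members on the positive and 4 on the negative side. The groups did not overlap for 3 members, *Hmga2*, *Twist1* and *Foxc2*, and for 29.1% of all genes. For *Twist1* the nearest values were almost equal, 5.776 in EpCAM+ plastic array 2 and 5.775 in full epithelial array 2. Expression differences in sorted populations are those of bulk RNA, in which fewer cells of a kind and less RNA per cell cannot be told apart.

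**Figure D1:**
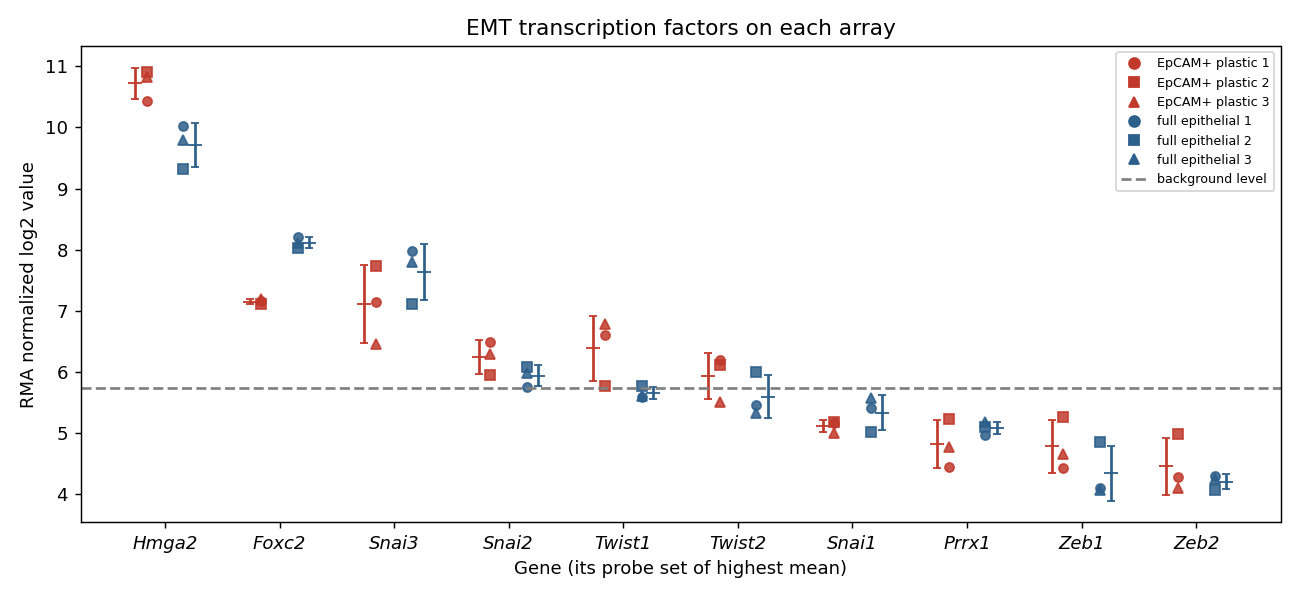
Normalized log2 value (y axis) of each of the 10 EMT transcription factors at its brightest probe set (x axis), by array. EpCAM+ plastic arrays are red and full epithelial arrays blue, the bars give mean ± SD (n = 3 each), and the dashed line is the background level of 5.73. *Hmga2* has all 3 red points above the blue ones, as has *Twist1*, there with 1 red point level with a blue one. *Foxc2* has them all below, and *Snai1*, *Prrx1*, *Zeb1* and *Zeb2* stay under the line on every array.

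*Hmga2*, on chromosome 10, was 10.43, 10.91 and 10.83 in the 3 EpCAM+ plastic arrays, against 10.02, 9.33 and 9.80 in the 3 full epithelial arrays. Every EpCAM+ plastic value lay above every full epithelial value. The means were 10.72 ± 0.26 in EpCAM+ plastic and 9.71 ± 0.35 in full epithelial cells (SD, n = 3 each), a log2 fold change of 1.01 (SE 0.21, 95% interval 0.51 to 1.51, limma adjusted p = 0.0418), or 2.01-fold on the linear scale. The transcript was therefore well above background in both populations, with all 6 arrays over the level.

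3 further probe sets read *Hmga2*, and the groups did not overlap in any of the 4. The second probe set gave 9.51, 10.19 and 10.20 in EpCAM+ plastic arrays, against 9.35, 8.41 and 9.00 in full epithelial arrays, a log2 fold change of 1.04 (SE 0.28, limma adjusted p = 0.0867). The third gave 9.50, 9.97 and 9.98 in EpCAM+ plastic arrays, against 9.20, 8.42 and 8.96 in full epithelial arrays, with 0.96 (SE 0.23, limma adjusted p = 0.0619). Both were above background on every array, and neither passed the test. The dimmest probe set gave 5.15, 6.03 and 6.40 in EpCAM+ plastic arrays, against 4.87, 4.30 and 4.59 in full epithelial arrays, with 1.28 (SE 0.32, limma adjusted p = 0.0705), and only 2 EpCAM+ plastic arrays exceeded the background level there. In all 4 probe sets full epithelial array 2 was lowest, followed by full epithelial arrays 3 and 1 and then by EpCAM+ plastic array 1. Sharing a transcript and the same arrays, the 4 probe sets are repeat readings and not replicates. The call itself was narrow: leaving out any 1 of the 6 arrays ended it, with log2 fold changes of 0.82 to 1.16 and adjusted p of 0.0600 to 0.125, as did the mean of the 4 probe sets (1.07, adjusted p = 0.0535).

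**Figure D2:**
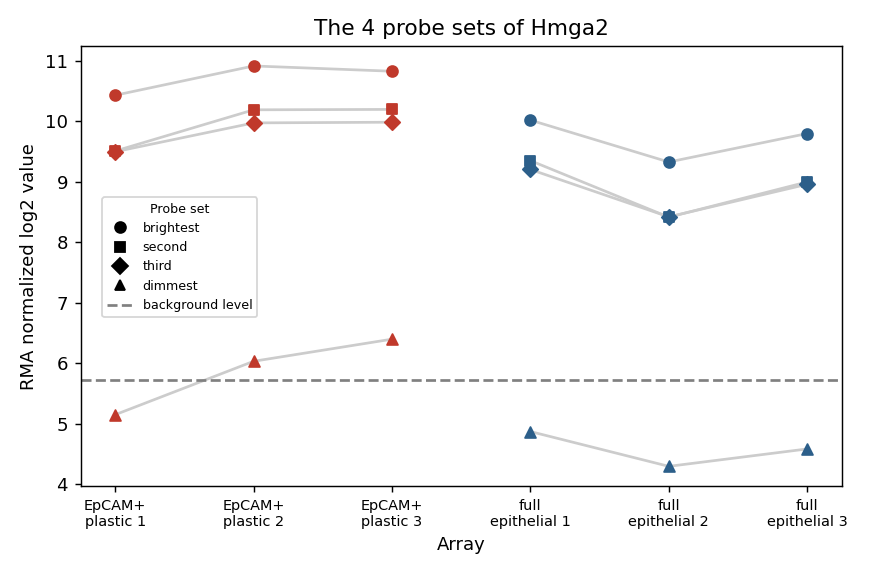
Normalized log2 value (y axis) of the 4 *Hmga2* probe sets on each array (x axis), EpCAM+ plastic arrays in red and full epithelial arrays in blue, with the background level dashed. In every probe set the 3 EpCAM+ plastic arrays lie above the 3 full epithelial ones, and full epithelial array 2 is lowest.

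The promoter window of *Hmga2*, shown because this is the member that rose, runs from 250 bases before to 50 bases after the transcript start (RefSeq, GRCm38.p6, chr10:120476420-120476719, minus strand). It is rich in C and T and has no E-box of the kind SNAI and ZEB proteins bind, CACCTG or CAGGTG on the other strand.
Hmga2 promoter: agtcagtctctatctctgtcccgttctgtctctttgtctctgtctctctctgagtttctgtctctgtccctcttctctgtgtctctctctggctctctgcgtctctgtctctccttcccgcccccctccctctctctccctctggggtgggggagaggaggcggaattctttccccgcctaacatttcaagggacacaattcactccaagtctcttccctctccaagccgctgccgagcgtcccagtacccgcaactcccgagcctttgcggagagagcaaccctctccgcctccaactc
Of the 10 members, 6 had such a window, and the E-box occurred in 1 of them, that of *Snai1*. Over all genes with a window, 22.6% had the motif. No match says only that these letters are not in this window.

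*Foxc2*, on chromosome 8, had 1 probe set and little spread within either group. It was 7.15, 7.11 and 7.19 in EpCAM+ plastic arrays, against 8.21, 8.03 and 8.11 in full epithelial arrays. All EpCAM+ plastic values lay below all full epithelial values, and the gap between the groups exceeded the spread within either. The means were 7.15 ± 0.04 in EpCAM+ plastic and 8.12 ± 0.09 in full epithelial cells (SD, n = 3 each), a log2 fold change of -0.97 (SE 0.09, 95% interval -1.18 to -0.75, limma adjusted p = 0.00650). *Foxc2*, a gene of mesenchyme and vessel development, was above background on all 6 arrays, and its lower level was called with any 1 array left out (-1.01 to -0.92, adjusted p 0.0143 to 0.0358). The direction was opposite to that of *Hmga2*.

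*Twist1*, a bHLH factor on chromosome 12, was 6.60, 5.78 and 6.78 in EpCAM+ plastic arrays, against 5.59, 5.77 and 5.61 in full epithelial arrays. EpCAM+ plastic arrays 1 and 3 stood above the rest, and EpCAM+ plastic array 2 was level with full epithelial array 2. The means were 6.39 ± 0.54 in EpCAM+ plastic and 5.66 ± 0.10 in full epithelial cells (SD, n = 3 each), a log2 fold change of 0.73 (SE 0.25, 95% interval 0.12 to 1.33, limma adjusted p = 0.159) that did not pass. Without EpCAM+ plastic array 2 it was 1.03 (SE 0.12, limma adjusted p = 0.0144) and passed, so 1 array decided this result. Its relative *Twist2*, on chromosome 1, was 6.19, 6.11 and 5.50 in EpCAM+ plastic arrays, against 5.46, 5.99 and 5.32 in full epithelial arrays. The groups overlapped, and the log2 fold change of 0.34 (SE 0.24, 95% interval -0.23 to 0.92, limma adjusted p = 0.487) did not pass.

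TWIST proteins act with E-proteins and are held back by Id proteins, and the list of these 7 genes had a median log2 fold change of 0.18. In it 1 gene was called higher and none lower, beside 5.3% and 1.91% of all genes. The 1 gene was *Id4*, an Id protein, with 10.05, 9.90 and 10.07 in EpCAM+ plastic arrays, against 9.12, 9.38 and 9.59 in full epithelial arrays (0.64, SE 0.14, limma adjusted p = 0.0446). *Id1*, another Id protein, was 6.44, 6.62 and 5.73 in EpCAM+ plastic arrays, against 7.46, 7.15 and 7.12 in full epithelial arrays (-0.98, SE 0.24, limma adjusted p = 0.0640). *Id1* had no overlap between groups, in the direction opposite to *Id4*, but did not pass. The E-protein gene *Tcf3* had a log2 fold change of 0.41 (limma adjusted p = 0.174). With each array left out in turn, 0 to 1 genes were called higher and 0 to 1 lower.

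None of the 3 SNAI genes passed. *Snai2*, which encodes Slug and is active in basal keratinocytes and wound healing, was 6.49, 5.95 and 6.29 in EpCAM+ plastic arrays, against 5.75, 6.08 and 5.99 in full epithelial arrays. The groups overlapped through EpCAM+ plastic array 2, all 6 arrays were just above background, and the log2 fold change was 0.30 (SE 0.16, 95% interval -0.09 to 0.69, limma adjusted p = 0.355). *Snai1*, which encodes Snail, was 5.17, 5.17 and 5.00 in EpCAM+ plastic arrays, against 5.40, 5.01 and 5.57 in full epithelial arrays. No *Snai1* value exceeded the background level, and the log2 fold change was -0.21 (SE 0.15, limma adjusted p = 0.499).

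*Snai3*, the least studied SNAI gene and a chromosome 8 neighbour of *Foxc2*, was 7.14, 7.74 and 6.46 in EpCAM+ plastic arrays, against 7.98, 7.12 and 7.80 in full epithelial arrays. EpCAM+ plastic array 3 was lowest, the groups overlapped, and the log2 fold change was -0.52 (SE 0.36, 95% interval -1.37 to 0.33, limma adjusted p = 0.471). Its second probe set gave 5.45, 5.88 and 4.66 in EpCAM+ plastic arrays, against 6.51, 5.32 and 5.91 in full epithelial arrays. EpCAM+ plastic array 3 was lowest there too, and the test did not pass (-0.58, SE 0.39, limma adjusted p = 0.457).

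*Zeb1*, *Zeb2* and *Prrx1* stayed under the background level. Their 12 probe sets had no array above it, and none passed. A change can be understated at these intensities. The brightest *Zeb1* probe set gave 4.43, 5.26 and 4.65 in EpCAM+ plastic arrays, against 4.09, 4.85 and 4.07 in full epithelial arrays (0.44, SE 0.28, limma adjusted p = 0.444). Array 2 was the highest of each group, and the other *Zeb1* probe sets had log2 fold changes of 0.09 and 0.29. The brightest *Zeb2* probe set gave 4.29, 4.98 and 4.09 in EpCAM+ plastic arrays, against 4.30, 4.06 and 4.25 in full epithelial arrays (0.25, SE 0.23, limma adjusted p = 0.598). EpCAM+ plastic array 2 alone stood out, and the other 3 probe sets ranged between -0.05 and 0.31. The brightest *Prrx1* probe set gave 4.44, 5.23 and 4.78 in EpCAM+ plastic arrays, against 4.97, 5.10 and 5.18 in full epithelial arrays (-0.27, SE 0.20, limma adjusted p = 0.507). Again EpCAM+ plastic array 2 was highest, while the other 4 probe sets ranged between -0.12 and 0.22.

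**Figure D3:**
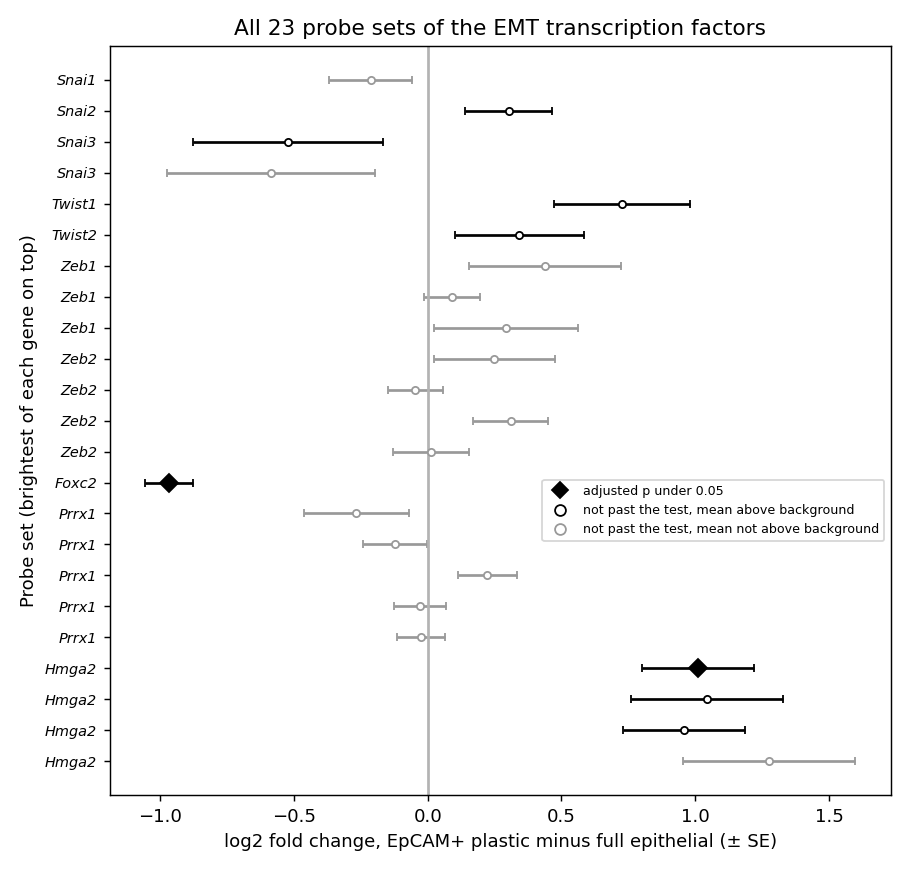
Log2 fold change, EpCAM+ plastic minus full epithelial, ± SE (x axis) of all 23 probe sets of the 10 members (y axis, brightest of each gene on top). The filled diamonds are the 2 probe sets with an adjusted p under 0.05, for *Foxc2* at -0.97 and *Hmga2* at 1.01, and grey marks the 15 probe sets whose mean was not above background.

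Across the 23 probe sets, 2 passed and 21 did not, beside 6.79% called of all single-gene probe sets. By mean level 8 probe sets were above background, and 13 exceeded it on no array. The groups did not overlap for 7 probe sets, beside 28.2% of all single-gene probe sets. Of the genes above background at their brightest probe set, 13.5% were called. The members above background there numbered 6, of which 2, *Hmga2* and *Foxc2*, were called. The sorted cells thus carried measurable *Snai2*, *Snai3*, *Foxc2* and *Hmga2* signal, above background on all 6 arrays at the brightest probe set. *Twist1* and *Twist2*, with means of 6.02 and 5.76, each exceeded the level on only 1 full epithelial array. In EpCAM+ plastic cells *Twist1* exceeded it on 3 arrays and *Twist2* on 2. The remaining 4 members exceeded the level on no array of either population. That level is a strict cutoff, since the median of the control probe sets was 3.37, so staying under it does not show absence of transcript.

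EpCAM+ plastic array 2, which was highest of the 6 in 5 of the 12 *Zeb1*, *Zeb2* and *Prrx1* probe sets and lowest of its group for *Twist1*, was also highest in 5 of the 12 fibroblast markers and lowest in 2. Other *Zeb2* probe sets (3.82 and 3.27) and a further *Prrx1* probe set (2.72) had their lowest value of the 6 in this array. *Col1a1*, encoding a chain of type I collagen, was 6.63, 8.05 and 6.48 in EpCAM+ plastic arrays, against 7.04, 6.85 and 7.76 in full epithelial arrays. *Postn*, encoding the matrix protein periostin, was 4.82, 7.62 and 4.71 in EpCAM+ plastic arrays, against 4.48, 5.02 and 5.03 in full epithelial arrays. *Dcn* and *Col3a1*, at 6.84 and 7.85, and the receptor gene *Pdgfrb*, at 5.80, were highest in the same array, *Pdgfrb* by little, with 5.31 to 5.78 on the others. None of the 12 fibroblast markers was called, and their summed linear signal was 1049, 1530 and 919 in EpCAM+ plastic arrays, against 1242, 1206 and 1339 in full epithelial arrays. *Fbln1*, the marker that adds most to these sums, was 9.39, 9.14 and 9.23 in EpCAM+ plastic arrays, against 9.59, 9.62 and 9.52 in full epithelial arrays, lowest in EpCAM+ plastic array 2. *Pdgfra*, a further receptor gene, was lowest there too, at 4.00. Of the 12 markers 6 stayed under background on every array, *Pdgfra*, *Lum*, *Dpt*, *Col1a2*, *Thy1* and *Mfap5*, and 6 exceeded it on at least 1 array. The part of fibroblast RNA in the *Zeb1*, *Zeb2*, *Prrx1* and *Twist1* values was not tested.

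None of the 7 melanocyte, 9 leukocyte, 7 endothelial and 4 pericyte or muscle markers measured was called either. Leukocyte signal, which came mostly from *Cd68*, summed to 533, 457 and 359 in EpCAM+ plastic arrays, against 802, 836 and 527 in full epithelial arrays. Endothelial signal summed to 180, 134 and 138 in EpCAM+ plastic arrays, against 141, 144 and 145 in full epithelial arrays. These sums overlapped between groups for both cell types. The only endothelial marker above background was *Pecam1*, at 6.09 in EpCAM+ plastic array 1 alone, and the cell suspensions had been depleted of endothelial cells before the sort, per the study's methods. The part of such cells in the *Foxc2* values was not tested.

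**Figure D4:**
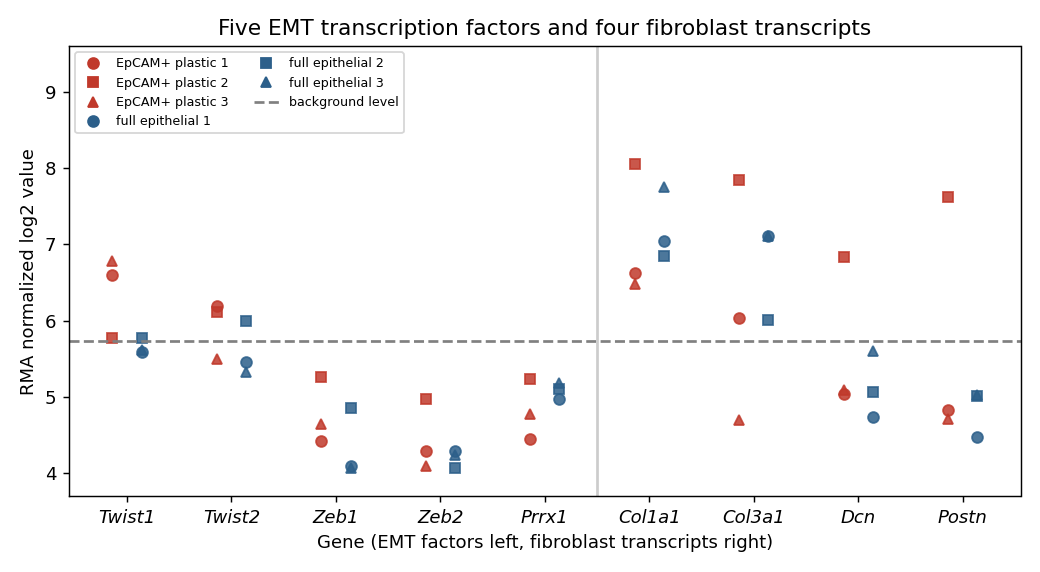
Normalized log2 value (y axis) of 5 EMT transcription factors and 4 fibroblast transcripts (x axis) by array, EpCAM+ plastic in red and full epithelial in blue, with the background level dashed. EpCAM+ plastic array 2, the red square, is highest for *Zeb1*, *Zeb2*, *Prrx1* and all 4 fibroblast transcripts, and lowest of the red points for *Twist1*. The 4 transcripts are a selection from 12 fibroblast markers, of which 5 were highest and 2 lowest in this array.

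The genes on which these factors act were read from lists. Of 25 epithelial genes known to be repressed by SNAI, ZEB or TWIST proteins, 4 were called lower and 1 higher. Over all genes 1.91% were called lower and 5.3% higher. This list had a median log2 fold change of -0.19. With each array left out in turn, 1 to 3 were called lower and 0 to 2 higher. *Cdh1*, which encodes E-cadherin and is the textbook target, was 9.15, 8.65 and 9.10 in EpCAM+ plastic arrays, against 9.25, 9.10 and 8.39 in full epithelial arrays. The groups overlapped, with a log2 fold change of 0.05 (SE 0.25, 95% interval -0.54 to 0.65, limma adjusted p = 0.934). *Epcam*, on which the cells were sorted, had a log2 fold change of 0.30 (SE 0.16, limma adjusted p = 0.347).

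4 genes of this list fell. *Llgl2*, a basolateral polarity gene, was 7.81, 7.76 and 7.48 in EpCAM+ plastic arrays, against 9.00, 8.74 and 8.80 in full epithelial arrays (-1.16, SE 0.13, limma adjusted p = 0.00868). *Rab25*, an epithelial vesicle-traffic GTPase, was 10.30, 10.38 and 9.95 in EpCAM+ plastic arrays, against 11.28, 11.02 and 10.99 in full epithelial arrays (-0.88, SE 0.15, limma adjusted p = 0.0232). Both had all EpCAM+ plastic values below all full epithelial values. The claudin gene *Cldn7* (-1.37, limma adjusted p = 0.0284) and the tight junction gene *Cgn* (-1.12, limma adjusted p = 0.0389) also fell, *Cgn* being named after its value was seen, and *Cldn7* was above background on 1 full epithelial array only. *Krt18*, a keratin of simple epithelia, rose, with 10.16, 9.25 and 10.45 in EpCAM+ plastic arrays, against 8.06, 8.05 and 8.67 in full epithelial arrays (1.69, SE 0.33, limma adjusted p = 0.0349).

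The promoters of *Rab25* and *Krt18* are shown because both hold the E-box, in capitals, while one gene fell and the other rose (RefSeq, GRCm38.p6, chr3:88548230-88548529, minus strand, and chr15:102027966-102028265, plus strand).
Rab25 promoter: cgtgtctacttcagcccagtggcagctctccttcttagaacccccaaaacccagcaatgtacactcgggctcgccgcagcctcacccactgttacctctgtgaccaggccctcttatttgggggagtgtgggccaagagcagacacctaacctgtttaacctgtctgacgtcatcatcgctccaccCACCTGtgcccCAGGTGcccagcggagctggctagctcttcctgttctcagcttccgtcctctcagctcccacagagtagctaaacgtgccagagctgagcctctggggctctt
Krt18 promoter: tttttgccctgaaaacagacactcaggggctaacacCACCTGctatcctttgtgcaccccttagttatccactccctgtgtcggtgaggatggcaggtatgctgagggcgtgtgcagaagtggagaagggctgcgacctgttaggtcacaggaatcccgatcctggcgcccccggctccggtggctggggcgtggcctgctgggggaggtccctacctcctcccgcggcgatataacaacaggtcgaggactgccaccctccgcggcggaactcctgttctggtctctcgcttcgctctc
*Rab25* has the motif in 2 copies and *Krt18* in 1. Of the 25 epithelial genes 18 had a window, and 14 of these (77.8%) held the motif, beside 22.6% of all genes, in a list made of known targets of E-box repressors. Of 23 mesenchymal genes 13 had a window and 1 held it. A match is a description of the letters and not a bound site.

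Of the 23 mesenchymal genes measured, 6 were called higher and none lower, beside 5.3% and 1.91% of all genes. The median log2 fold change of the 23 was 0.09. *Fn1*, encoding fibronectin, was 7.74, 8.74 and 8.17 in EpCAM+ plastic arrays, against 6.36, 6.23 and 5.90 in full epithelial arrays (2.05, SE 0.26, limma adjusted p = 0.0116). *Vim*, encoding the intermediate filament vimentin, was 8.70, 7.90 and 8.39 in EpCAM+ plastic arrays, against 5.38, 6.31 and 6.53 in full epithelial arrays (2.26, SE 0.33, limma adjusted p = 0.0166). Every EpCAM+ plastic array exceeded every full epithelial array for both genes. In EpCAM+ plastic array 2, where several fibroblast transcripts were highest, *Fn1* was the highest of all 6 and *Vim* the lowest of its group. The matrix gene *Tnc* (2.58, limma adjusted p = 0.0157) and the smooth muscle actin gene *Acta2* (1.19, limma adjusted p = 0.0272) rose as well. *Cdh2*, encoding N-cadherin, stayed under background on all arrays (-0.17, limma adjusted p = 0.310). The count called higher was 2 to 5 with each array left out, lowest without EpCAM+ plastic array 1 or full epithelial array 1. Beside these, the members called were 1 higher and 1 lower of 10.

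**Figure D5:**
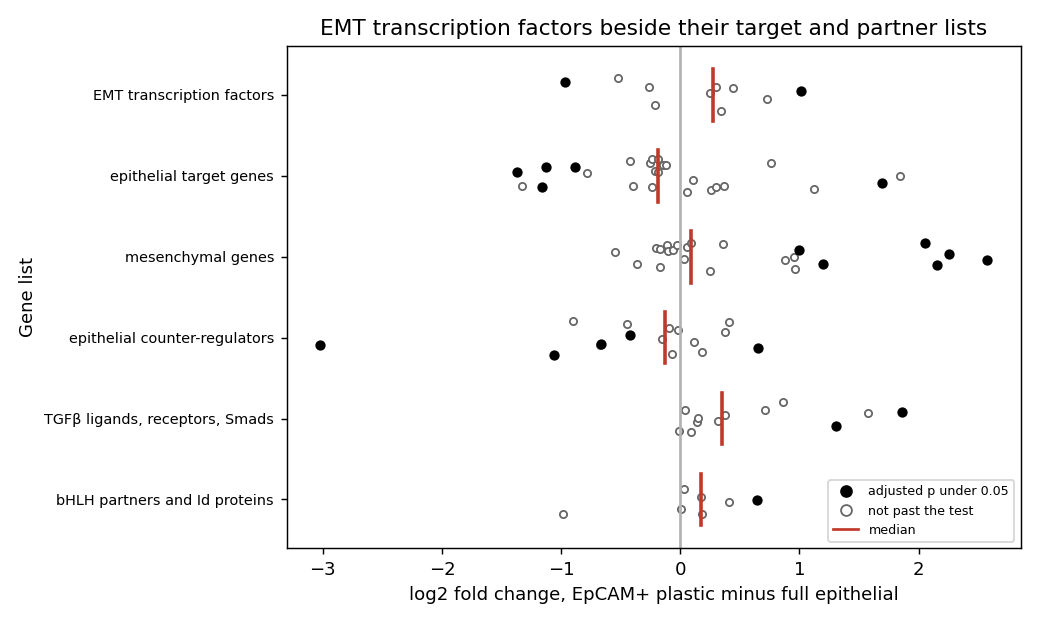
Log2 fold change, EpCAM+ plastic minus full epithelial (x axis), of each gene in 6 lists (y axis), filled where the adjusted p was under 0.05, with the median as a red line. The EMT transcription factors span -0.97 to 1.01, while mesenchymal genes reach 2.58 and the epithelial counter-regulator *Elf5* reaches -3.02.

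Epithelial transcription factors that counter EMT make up a further list of 16 genes, with a median of -0.13. In this list 4 were called lower and 1 higher, beside 1.91% and 5.3% of all genes. *Elf5*, an ETS factor that represses *Snai2* in mammary epithelium, was 4.84, 6.46 and 3.91 in EpCAM+ plastic arrays, against 8.65, 8.10 and 7.53 in full epithelial arrays (-3.02, SE 0.63, limma adjusted p = 0.0421). The groups did not overlap, with nearest values of 6.46 and 7.53. The 3 EpCAM+ plastic arrays spread widely, and 2 of them were under background. *Klf5* (-1.06, limma adjusted p = 0.0372) and the ETS factors *Ehf* (-0.67, limma adjusted p = 0.0346) and *Elf3* (-0.42, limma adjusted p = 0.0488, named after its value was seen) fell too. *Foxa1* rose (0.65, limma adjusted p = 0.0417) but stayed under background on every array. *Ovol1*, *Ovol2*, *Grhl2* and *Esrp1*, which oppose ZEB proteins or keep epithelial splicing, did not pass, at -0.45, -0.07, 0.41 and 0.12. Of the 4 called lower, 3 were still called without EpCAM+ plastic array 2, and none was without any other array.

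Upstream of the factors, TGFβ is the best known inducer of EMT. A list of 12 genes, its ligands, receptors and Smads with the related genes *Ski* and *Skil*, had a median of 0.35. In this list 2 were called higher and none lower, beside 5.3% and 1.91% of all genes. Both encode receptors. *Tgfbr1* was 8.54, 8.63 and 8.94 in EpCAM+ plastic arrays, against 7.14, 6.69 and 6.68 in full epithelial arrays (1.86, SE 0.17, limma adjusted p = 0.00579). *Tgfbr2* was 7.42, 8.06 and 7.50 in EpCAM+ plastic arrays, against 6.36, 6.13 and 6.57 in full epithelial arrays (1.31, SE 0.20, limma adjusted p = 0.0186). Neither receptor overlapped between groups. *Tgfbr1* was called with any 1 array left out (adjusted p 0.0124 to 0.0288), while *Tgfbr2* was called in 3 of the 6 such fits (0.0183 to 0.0631).

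HMGA2 level is set in part by let-7, whose maturation LIN28 blocks, and 12 genes on this axis had a median of 0.11. Among them 2 were called higher and 1 lower, beside 5.3% and 1.91% of all genes. *Igf2bp1*, an RNA-binding protein gene and itself a let-7 target, was 5.34, 4.99 and 5.02 in EpCAM+ plastic arrays, against 6.01, 6.58 and 6.13 in full epithelial arrays (-1.12, SE 0.18, limma adjusted p = 0.0198). It thus moved opposite to *Hmga2* and was above background in full epithelial arrays only. *Dgcr8*, needed to process primary microRNAs (0.75, limma adjusted p = 0.0276), and *Plagl2* (0.74, limma adjusted p = 0.0497) rose. *Lin28a* stayed under background on every array, at 0.12.

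Proteins that work with the factors or mark them for degradation made up a pair of lists. Of 18 corepressor and chromatin partners 1 was called higher and 1 lower, beside 5.3% and 1.91% of all genes, with a median of 0.35. The groups did not overlap for 10 of them on the higher and 1 on the lower side, beside 15.4% and 13.7% of all genes. The gene called higher was *Prmt5*, an arginine methyltransferase that SNAI1 recruits (6.94 ± 0.06 in EpCAM+ plastic and 6.00 ± 0.22 in full epithelial cells, SD, n = 3 each, log2 fold change 0.95, limma adjusted p = 0.0130). The gene called lower was *Rcor1*, encoding the CoREST scaffold (7.82 ± 0.05 in EpCAM+ plastic and 8.70 ± 0.26 in full epithelial cells, SD, n = 3 each, log2 fold change -0.89, limma adjusted p = 0.0205). Of 14 genes for protein stability and phosphorylation 2 were called higher and none lower. Both encode F-box proteins that target Snail for degradation, *Fbxl14* (0.77, limma adjusted p = 0.0323) and *Btrc* (1.16, limma adjusted p = 0.0352). The groups did not overlap for 6 genes of this list on the higher and 4 on the lower side. Among the lower ones were the F-box genes *Fbxo45* (-1.48, limma adjusted p = 0.0813) and *Fbxl5* (-0.95, limma adjusted p = 0.127), which did not pass. Of 11 other EMT-linked transcription factors 1 rose and none fell, with a median of 0.04. It was *Sox4*, with 8.24, 8.10 and 8.49 in EpCAM+ plastic arrays, against 7.21, 7.40 and 7.55 in full epithelial arrays (0.89, SE 0.14, limma adjusted p = 0.0204).

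Most of these list calls were narrow, as that of *Hmga2* was. Of the 27 list genes called, 3 were called with any 1 of the 6 arrays left out, *Fn1* (adjusted p 0.0129 to 0.0401), *Llgl2* (0.0157 to 0.0379) and *Tgfbr1*, all by limma. The other 24 lost the call in at least 1 of the 6 fits, and *Elf3* and *Plagl2* lost it in all of them. None of the 27 changed direction under any alternative, which was largely fixed in advance. The groups did not overlap for any of the 27, so leaving out 1 array could not reverse them. Several other alternatives do not alter the log2 fold change. Of the 2 members called, *Foxc2* kept its call in all 6 of these fits and *Hmga2* in none.

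The patterns most like those of the members were found among 7734 other genes above background, by the root mean square difference of mean-centred log2 values over the 6 arrays, for members above background whose values spanned at least 1. For *Hmga2* these were *Zc2hc1a* (difference 0.0738), *Zxdc* (0.104) and *Specc1* (0.122). For *Foxc2* they were *Malt1* (0.0910), *Chd9* (0.0963) and *Mknk2* (0.106). *Twist1* was nearest to *Sh2d4b* (0.0971), *Bdkrb2* (0.102) and *Uck2* (0.105), and *Snai3* to *Phactr4* (0.0579), *Spns2* (0.0968) and *Sdcbp2* (0.0998). *Phactr4* followed *Snai3* array by array, with 9.48, 10.14 and 8.87 in EpCAM+ plastic arrays, against 10.49, 9.56 and 10.15 in full epithelial arrays.

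Genes lying beside the members on the chromosome were read as well. The 24 genes above background that flank *Hmga2*, 12 on each side, had a median log2 fold change of 0.04, and 2 were called higher and 2 lower. The 24 that flank *Foxc2* had a median of -0.05, with none called higher and 1 lower. For *Twist1* the flanking median was -0.08, while all genes above background had 0.09.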

How the data were processed

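RNA of 6 sorted samples was amplified, labelled and hybridized by the authors, who deposited log2 values normalized with RMA (version not given in the sources used here) in 2 tables that hold the same numbers. The authors' steps correct background and normalize by quantiles, so a shift common to all genes would not show. Of 45141 probe sets, 28898 name 1 gene in the platform annotation, 551 name several and 15692 are not listed. Symbols were updated through RefSeq (GRCm38.p6) for 28689. Groups and replicate numbers came from the labels, which call the arrays biological replicates.

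EpCAM+ plastic minus full epithelial differences were fitted by limma 3.58.1 in R 4.3.3 (lmFit, eBayes, two-sided, without covariates) over all probe sets, with 4 residual and 2.81 prior degrees of freedom and Benjamini-Hochberg adjustment. A gene was represented by its single-gene probe set of highest mean. An exact permutation test of 3 against 3 cannot go below 0.1. The script was tested on simulated data. The background level of 5.73 is the 95th percentile of the means of 23 nonspecific control probe sets. The number of arrays limits the precision.

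Named were all members with every probe set, up to 4 called genes of each list by smallest p, *Cdh1*, *Epcam*, *Vim*, *Fn1* and *Cdh2*, markers set beside a result, and the 3 nearest patterns of a member. Genes set beside these as partners (*Id1*, *Tcf3*, *Ovol1*, *Ovol2*, *Grhl2*, *Esrp1*, *Lin28a*, *Fbxo45*, *Fbxl5*) were chosen after their values were seen. The members and lists were chosen with earlier results of these data known. Listed genes with no single-gene probe set were not analysed here. Alternatives were renewed quantile normalization, a filter on dim probe sets, trend and robust variance priors, array weights, a replicate block, the mean of a gene's probe sets, a fold minimum, the second table and leaving out each array, applied to the lists only after the data were seen.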

Additional observations from a re-analysis of the deposited data

How the results depend on the processing

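Among 126 pairs of a member and an alternative, 125 kept the direction of the log2 fold change, the exception being *Zeb2* at -0.01 without EpCAM+ plastic array 2. Pairs with the second table could not differ, since it holds the same numbers. Nor could the filter, the trend and robust priors or the replicate block change a direction, since they leave the log2 fold change as it was. Leaving out 1 array could not reverse members whose groups did not overlap. For a member with 1 probe set, the mean of its probe sets could not change the direction either. *Foxc2* was called lower under all 13 alternatives to its fit (adjusted p 0.00489 to 0.0449), and the count of members called lower was 1 to 1 with each array left out, but 0 where a log2 fold change of at least 1 was required. The count of members called higher was 0 to 1 with each array left out, and 0 with the mean of all probe sets of a gene. The 1 without EpCAM+ plastic array 2 was *Twist1* and not *Hmga2*, whose call was lost in 8 of its 13 alternatives. Replicate numbers did not pair the arrays, with correlations of the deviations of same-numbered arrays of -0.19, -0.47 and -0.02. With the replicate number as a block, 0 members were called higher, *Hmga2* had an adjusted p of 0.128 at 1.01, and 483 probe sets were called in all, beside 2699 without the block. Leaving out EpCAM+ plastic array 1 gave 576 called probe sets in all, leaving out array 2 gave 2627 and leaving out array 3 gave 920. The counts were 1014, 1691 and 1486 without full epithelial arrays 1, 2 and 3, and the mean of a gene's probe sets gave 1296 of 17097 genes. For the lists, alternatives added after the data were seen gave the following counts where they differed by over 1.5 times. With each array left out the counts were 2 to 5 for mesenchymal genes called higher (6 with all arrays), 0 to 3 for epithelial counter-regulators and 1 to 3 for epithelial target genes called lower (4 each), 1 to 2 for TGFβ genes, and 0 to 2 for every other list and direction. With the replicate block, 3 mesenchymal genes were called higher, 2 epithelial target genes lower, and 0 in the other lists with a call except TGFβ genes and the 1 epithelial target gene called higher. The mean of all probe sets gave 2 other EMT-linked factors and 3 corepressors higher and 0 corepressors lower. Keeping only probe sets above background gave 2 corepressors and 2 epithelial target genes higher, 0 counter-regulators higher, 2 stability genes and 1 Id gene lower, and 0 let-7 genes lower. Renewed quantile normalization gave 0 bHLH or Id genes higher and 1 lower, 0 stability genes higher and 1 let-7 gene higher. The trend and robust prior gave 0 bHLH or Id genes, 2 corepressors and 1 let-7 gene higher, and array weights gave 2 corepressors higher and 1 stability gene lower. The cause of these changes was not tested. Signals near background limit what *Snai1*, *Zeb1*, *Zeb2* and *Prrx1* can show.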
